A study of Homo sapiens with 16 samples.

Results

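MYC and the proteins that share its partner MAX were followed in CEM, CUTL1, DND41 and Jurkat, 4 established human lines of T-cell acute lymphoblastic leukaemia (T-ALL). Each line was given 1 uM PD-0332991 (palbociclib), an inhibitor of the cyclin D kinases CDK4 and CDK6, or the solvent DMSO alone, for 15 h. Every one of the 8 combinations of line and treatment had 2 Affymetrix Human Genome U133 Plus 2.0 arrays, 16 in all, and each line is a single cell line, so a line stands for itself and not for the disease. The genes were chosen by name: all probe sets carrying exactly 1 gene symbol, where that symbol was MYC, MAX, MXD1, MXD3, MXD4, MXI1, MNT, MGA or MLX. This gave 8 of the 9 listed genes, with 23 probe sets, out of 19775 genes with 41097 such probe sets. The 3 probe sets of MXD4 also carry the symbol of another gene, so MXD4 was given no value. Of the 23 probe sets 21 were bright enough to be tested, the dim ones being 206877_at of MXD1 and 1564640_at of MGA, and all 8 genes were among the 13483 genes tested.

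MYC is a transcription factor that binds DNA only after pairing with MAX, at sites called E-boxes, and it drives growth and metabolism genes. In T-ALL it is a well known direct target of NOTCH1. MXD1, MXI1, MXD3, MNT and MGA pair with MAX as well and repress transcription at the same kind of site, MXD proteins and MNT through the SIN3 and histone deacetylase (HDAC) corepressor and MGA through the Polycomb complex PRC1.6. MLX is a MAX-like protein that pairs with the glucose-sensing factor MondoA (gene MLXIP) and with some MXD proteins and MNT.

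Levels are given as log2 of the deposited intensity, and changes as the log2 level with PD-0332991 minus that with DMSO. A gene was called changed at a limma adjusted p under 0.05 (Benjamini-Hochberg over all genes tested). Separate cultures are not stated for the 2 arrays of a group, so each p-value rests on the spread between arrays alone, and precision is limited by the number of arrays. All 8 of the T-cell markers examined (CD3D, CD3E, CD3G, CD247, CD2, CD5, CD7 and LCK) were above the brightness floor in every line, with line means from 7.10 to 14.23 on the log2 scale. Of markers of other cells, 2 of 4 measured B-cell genes, 1 of 4 myeloid, 3 of 4 erythroid and megakaryocyte and 2 of 5 epithelial and fibroblast genes were above it in every line. Their highest line means were 10.63 for B-cell genes (CD79A in DND41) and 7.64 for epithelial and fibroblast genes (COL1A1 in CEM). For myeloid genes the highest was 5.31, and for erythroid and megakaryocyte genes 5.90. Array medians ran from 28.5 to 31.2 intensity units, and the 2 arrays of a group correlated at 0.993 to 0.998 across probe sets.

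On average over the lines, MYC, its partner MAX and 3 of its 5 measured antagonists, MXD1, MXI1 and MNT, rose with PD-0332991, and the antagonist MXD3 fell. MGA and MLX were not called. Over all genes tested, 26.7% were called higher and 20.0% lower, or 46.6% in either direction, and the counts of 5 higher and 1 lower among 8 genes are to be read against these shares. The median change of the 8 genes was 0.29, against 0.04 for all genes tested. Among lines, MXI1 rose in all 4, and MYC rose in CUTL1 and DND41 but not in CEM or Jurkat.

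**Figure D1:**
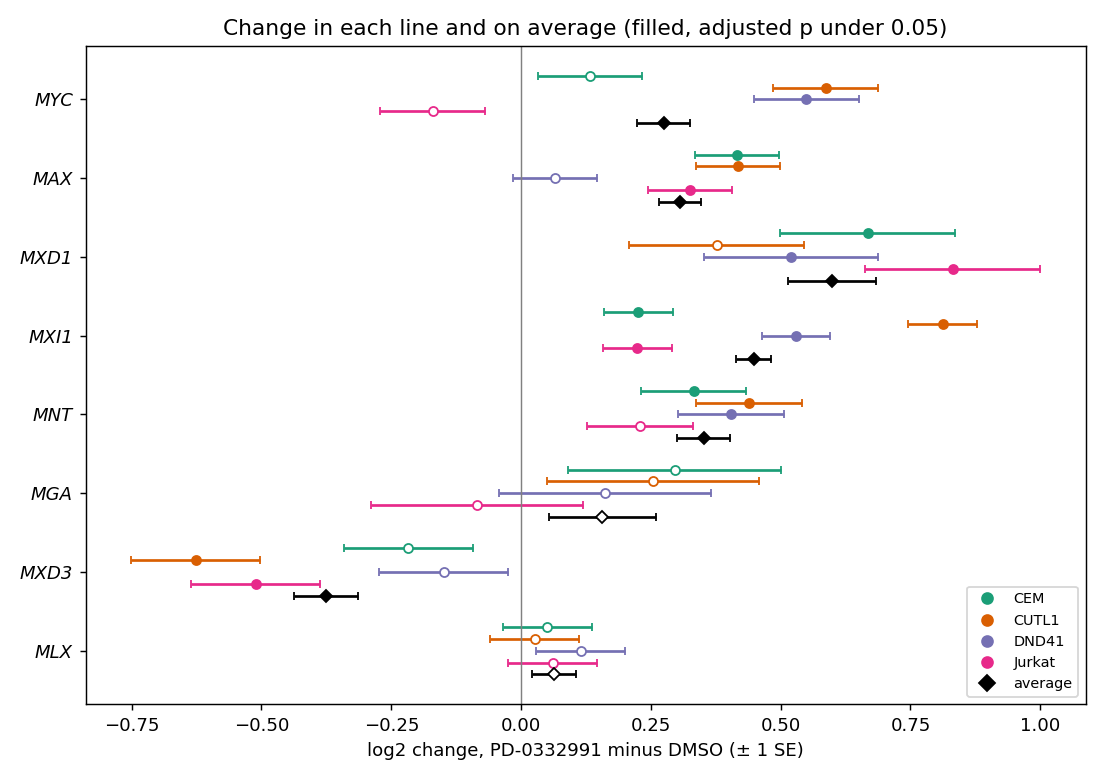
Log2 change of each gene with PD-0332991 minus DMSO (horizontal axis) in each line (circles, 2 arrays per treatment) and averaged over lines (diamonds), with bars of 1 standard error and filled symbols for an adjusted p under 0.05. MXD1, MXI1 and MNT lie right of 0 in every line and MXD3 left of 0 in every line, while MYC runs from -0.17 in Jurkat to 0.59 in CUTL1.

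MYC itself was measured by a single probe set, 202431_s_at. In CUTL1 the PD-0332991 arrays read 11.57 and 11.41, against 10.99 and 10.81 with DMSO. In DND41 they read 12.13 and 12.08, against 11.50 and 11.61 with DMSO. The treatments did not overlap in either line, as was so for 62.8% of all genes in CUTL1 and 64.5% in DND41. MYC rose by 0.59 (SE 0.10, 1.50-fold, limma adjusted p = 0.00113) in CUTL1 and by 0.55 (SE 0.10, 1.46-fold, limma adjusted p = 0.00225) in DND41.

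In CEM, MYC read 11.39 and 11.54 with PD-0332991, against 11.29 and 11.37 with DMSO, a difference of 0.13 (95% interval -0.09 to 0.35, limma adjusted p = 0.370). In Jurkat, MYC read 11.75 and 11.73 with PD-0332991, against 12.03 and 11.79 with DMSO, a difference of -0.17 (95% interval -0.39 to 0.05, limma adjusted p = 0.251). Neither line's difference passed the test. In CEM both treated arrays lay above both control arrays (groups apart for 64.8% of all genes), and in Jurkat both lay below (63.8%). The change in MYC differed between the lines (limma F test over 3 contrasts, adjusted p = 0.0130), as did that of 12.6% of all genes tested. Of the 6 pairs of lines, the change was larger in CUTL1 than in Jurkat by 0.76 (limma adjusted p = 0.0172) and in DND41 than in Jurkat by 0.72 (limma adjusted p = 0.0129), and the other 4 pairs did not pass. Of all genes, 2.55% differed between CUTL1 and Jurkat in their change, 9.52% between DND41 and Jurkat, 5.14% between CEM and CUTL1, 9.31% between CEM and DND41, 1.97% between CEM and Jurkat and 7.15% between CUTL1 and DND41. The average over lines was 0.27 (SE 0.05, limma adjusted p = 0.000789, n = 8 arrays per treatment). It was 0.17 without CUTL1, 0.18 without DND41 and 0.42 without Jurkat, and was called each time. Counting each line once, as a single difference, the same average gave a limma adjusted p of 0.227.

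The 18S ribosomal RNA probe sets moved with the same 2 lines. Their mean log2 level was 12.80 and 12.67 with PD-0332991 against 13.28 and 13.17 with DMSO in CUTL1, and 12.45 and 12.75 with PD-0332991 against 13.21 and 13.26 with DMSO in DND41. In CEM the values were 13.21 and 13.08 with PD-0332991 and 13.25 and 12.56 with DMSO, and in Jurkat 13.56 and 13.30 with PD-0332991 and 13.48 and 13.29 with DMSO, so the treatments overlapped there. The part of this shift in the MYC result was not tested. In bulk RNA, fewer cells of a kind and less RNA per cell cannot be told apart.

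**Figure D2:**
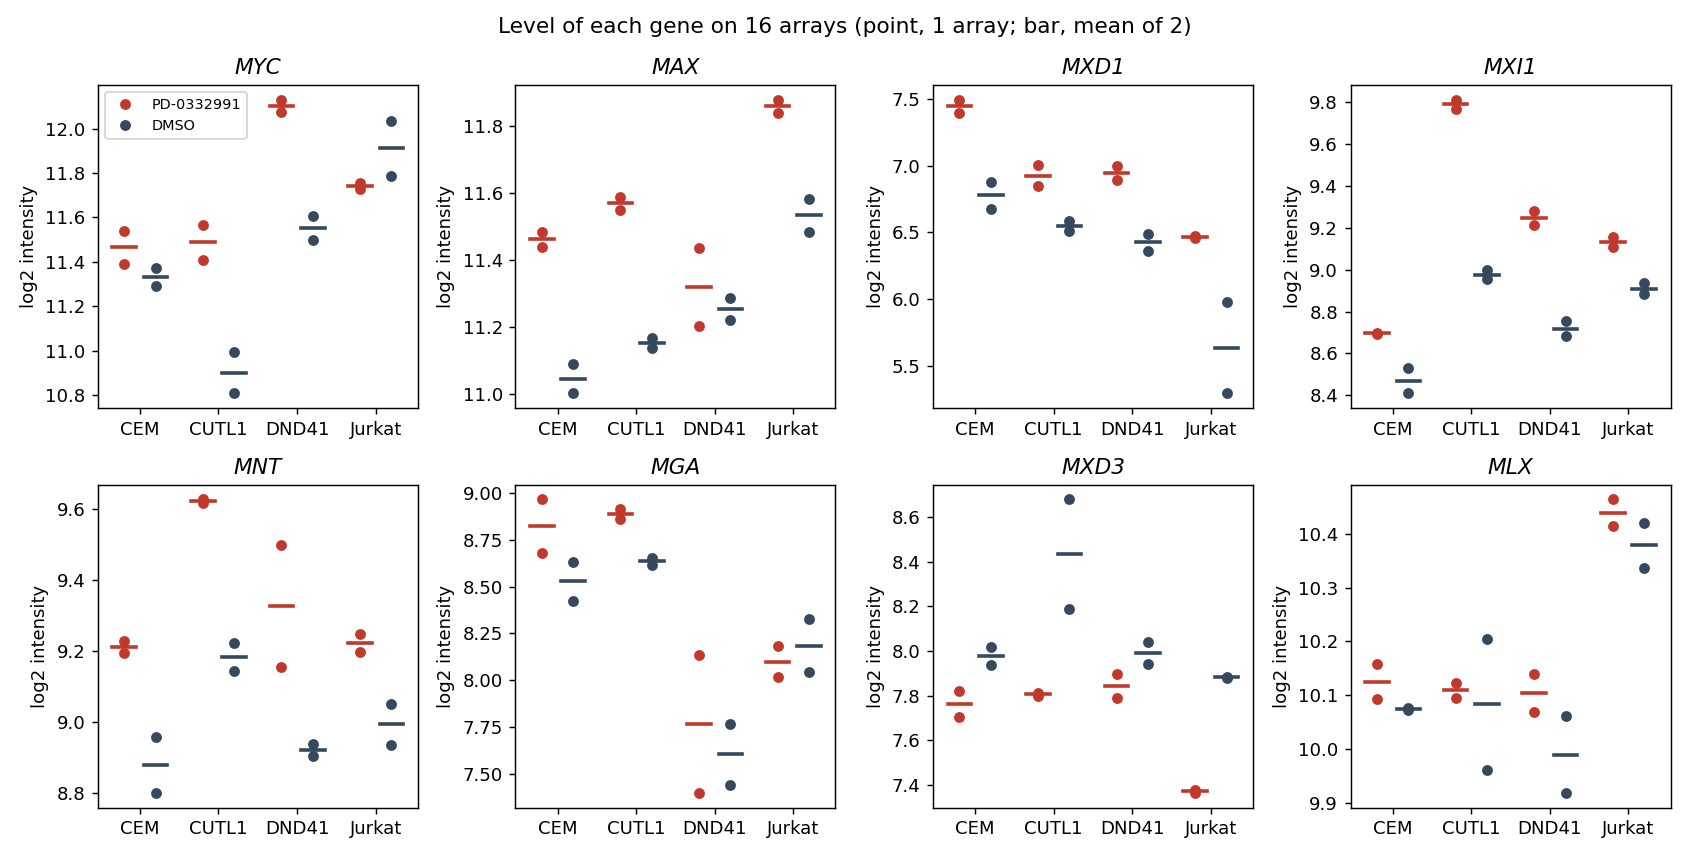
Log2 intensity (vertical axis) of the probe set used for each of the 8 genes, by line, with 1 point per array and a bar at the mean of 2 arrays, PD-0332991 in red left of DMSO in dark blue. The treated points of MYC stand clear above the controls in CUTL1 and DND41. In CEM they lie just above the controls and in Jurkat just below, and neither change was called.

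MAX, the partner that MYC and its antagonists share, rose in 3 lines on its brightest probe set, 209332_s_at. Its arrays read 11.48 and 11.44 with PD-0332991 against 11.09 and 11.00 with DMSO in CEM. In CUTL1 they read 11.55 and 11.59 with PD-0332991 against 11.14 and 11.17 with DMSO, and in Jurkat 11.88 and 11.84 with PD-0332991 against 11.48 and 11.58 with DMSO. On this probe set MAX rose by 0.42 in CEM, 0.42 in CUTL1 and 0.32 in Jurkat (SE 0.08 each, limma adjusted p = 0.00275, 0.00250 and 0.0116). With the mean of all its probe sets the changes were 0.11 in CEM, which was not called (limma adjusted p = 0.181), 0.26 in CUTL1, 0.17 in Jurkat and 0.19 on average, against 0.31 on this probe set. In CEM 210734_x_at (-0.15) and 214108_at (-0.01) lay below 0, as did 214108_at in Jurkat (-0.04), without passing. The second brightest, 209331_s_at, rose by 0.27 in CEM, 0.35 in CUTL1 and 0.29 in Jurkat (limma adjusted p = 0.0195, 0.00446 and 0.0144 over all probe sets). In those lines 208403_x_at (0.04, 0.03 and 0.20) did not pass. In DND41 the treated arrays of 209332_s_at read 11.20 and 11.44 and the DMSO arrays 11.29 and 11.22, which overlapped. That difference of 0.06 (limma adjusted p = 0.583) became -0.010 when each array was centred on its median. Of the other 4 MAX probe sets, 2 were called in that line: 209331_s_at rose there by 0.30 and 210734_x_at by 0.38 (limma adjusted p = 0.0127 and 0.0154 over all probe sets, of which 24.6% were called in DND41), while 208403_x_at (0.28) and 214108_at (0.07) did not pass (0.132 and 0.616). On 209332_s_at the rise in Jurkat lost its call without Jurkat DMSO replicate 1 (limma adjusted p = 0.0830) or Jurkat PD-0332991 replicate 1 (0.0779). MAX's change on it differed between lines only without DND41 PD-0332991 replicate 2 (limma adjusted p = 0.0284, against 0.118 with all arrays).

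Among the antagonists, MXI1 had the smallest adjusted p in the average (0.45, SE 0.03, limma adjusted p = 5.47e-07). It is a MAX-dependent repressor and a known target of FOXO factors. Of its 3 RefSeq promoter windows 2 (build GRCh38.p14, 250 bases before to 50 after a gene start) contain the FOXO letters GTAAACA on one strand or the other, as do 3.42% of all 35116 such windows. The windows of MNT, which rose and whose window holds an E-box, and of MXD3, the antagonist that fell, are shown with them, and capitals mark a searched motif.

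MXI1, chr10:110209981-110210280, plus strand: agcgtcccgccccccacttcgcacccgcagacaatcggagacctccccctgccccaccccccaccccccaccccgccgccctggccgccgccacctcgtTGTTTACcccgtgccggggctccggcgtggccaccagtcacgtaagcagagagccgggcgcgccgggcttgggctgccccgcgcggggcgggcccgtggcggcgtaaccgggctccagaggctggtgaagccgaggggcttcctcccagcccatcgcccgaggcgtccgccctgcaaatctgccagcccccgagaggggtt
MXI1, chr10:110225746-110226045, plus strand: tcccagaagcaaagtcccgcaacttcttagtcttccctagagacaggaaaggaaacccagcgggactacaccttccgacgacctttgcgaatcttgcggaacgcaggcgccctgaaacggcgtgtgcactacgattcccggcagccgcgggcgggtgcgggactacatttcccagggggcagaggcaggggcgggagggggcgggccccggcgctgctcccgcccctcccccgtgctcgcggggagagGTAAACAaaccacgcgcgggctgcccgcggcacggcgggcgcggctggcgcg
MNT, chr17:2401011-2401310, minus strand: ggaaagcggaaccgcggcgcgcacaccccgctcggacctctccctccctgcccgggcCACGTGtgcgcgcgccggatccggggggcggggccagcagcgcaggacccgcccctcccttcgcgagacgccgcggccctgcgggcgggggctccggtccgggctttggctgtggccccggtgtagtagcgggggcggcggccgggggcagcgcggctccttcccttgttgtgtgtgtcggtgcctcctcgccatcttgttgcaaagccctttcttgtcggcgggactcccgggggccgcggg
MXD3, chr5:177312703-177313002, minus strand: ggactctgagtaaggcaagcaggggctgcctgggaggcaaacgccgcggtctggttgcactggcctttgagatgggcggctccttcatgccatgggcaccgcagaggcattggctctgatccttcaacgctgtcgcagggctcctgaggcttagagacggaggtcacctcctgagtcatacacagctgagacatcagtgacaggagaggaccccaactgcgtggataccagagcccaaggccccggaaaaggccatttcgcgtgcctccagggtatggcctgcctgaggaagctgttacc

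E-box, E2F, CHR and FOXO letters were sought on both strands of 12 windows of 7 genes, with MYC left out of this search. The matches did not overlap each other. The E-box CACGTG is in 7.26% of all windows and was found at MNT and MLX, the E2F letters TTTNGCGC in 1.79% and at MGA, and the CHR letters TTTGAA in 15.2% and at MGA. MXD3's window held none of these motifs, which says only that these letters are not in it. The windows of MXD1 and MAX, which rose, and the MXI1 window not shown held none of them either. A match is a run of letters and not a shown binding site.

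On the intensity scale MXI1 read 899 and 871 with PD-0332991 in CUTL1, against 512 and 496 with DMSO. The treated arrays lay above the DMSO arrays in all 4 lines, as they did for MXD1 and MNT (10.7% of all genes did so). It rose by 0.81 (SE 0.07, 1.76-fold, limma adjusted p = 3.24e-06) in CUTL1. In DND41 it read 9.28 and 9.21 with PD-0332991 against 8.75 and 8.68 with DMSO, a rise of 0.53 (limma adjusted p = 0.000180). In CEM it read 8.69 and 8.70 with PD-0332991 against 8.41 and 8.53 with DMSO, and in Jurkat 9.15 and 9.11 with PD-0332991 against 8.88 and 8.94 with DMSO. These smaller rises were 0.23 in CEM and 0.22 in Jurkat (SE 0.07 each, limma adjusted p = 0.0251 and 0.0269).

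The change in MXI1 differed between lines (limma F test, adjusted p = 0.00505). It was larger in CUTL1 than in CEM by 0.59 (limma adjusted p = 0.00441, given in the fit as CEM minus CUTL1, -0.59) and than in Jurkat by 0.59 (limma adjusted p = 0.00752). Either rise in CEM or Jurkat lost its call when 1 of that line's arrays was left out: for CEM without DMSO replicate 1 (0.17, limma adjusted p = 0.184) or either treated array (0.0972 and 0.0895), and for Jurkat without DMSO replicate 1 (0.130) or either treated array (0.150 and 0.0838).

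MXD1, whose protein is known to accumulate as cells leave the cycle and differentiate, rose by 0.60 on average (SE 0.08, 1.51-fold, limma adjusted p = 0.000106). In Jurkat the treated arrays read 6.46 and 6.47, against 5.29 and 5.98 with DMSO, and in CEM its 2 treated arrays averaged 7.45, against 6.68 and 6.88 with DMSO. The 2 Jurkat DMSO arrays stood 0.68 apart, but both lay below the treated ones. MXD1 rose by 0.83 in Jurkat, 0.67 in CEM and 0.52 in DND41 (limma adjusted p = 0.00356, 0.0121 and 0.0389), while the difference of 0.38 in CUTL1 did not pass (0.125). The Jurkat value rests much on 1 array: without Jurkat DMSO replicate 1 it was 0.49 (limma adjusted p = 0.0121). With the mean of all probe sets it was 0.55, and the CEM value 0.44. A second probe set, 228846_at, rose by 0.59 on average. The DND41 call was lost without any 1 of the 4 DND41 arrays or of the 2 Jurkat treated arrays (limma adjusted p from 0.0536 to 0.175), and the CEM call without CEM DMSO replicate 1 (0.0904) or PD-0332991 replicate 1 (0.0752). Without either Jurkat DMSO array the CUTL1 difference was called (limma adjusted p = 0.0106), and without Jurkat DMSO replicate 2 the change differed between lines (0.0185, against 0.467).

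MNT, which is present in most cells and shares MAX with MYC, rose by 0.35 on average (SE 0.05, limma adjusted p = 0.000134). In CUTL1 its arrays read 9.63 and 9.62 with PD-0332991, against 9.14 and 9.22 with DMSO. It rose by 0.44 in CUTL1, 0.40 in DND41 and 0.33 in CEM (SE 0.10 each, limma adjusted p = 0.00740, 0.0126 and 0.0307), and the difference of 0.23 in Jurkat did not pass (0.124). With the mean of its probe sets the average was 0.22, and DND41 (0.18, limma adjusted p = 0.150) and CEM (0.23, 0.0705) lost their calls. In DND41 the treated arrays were far apart, 569 and 723 on the intensity scale, against 491 and 479 with DMSO, and without the higher one the change was 0.23 (limma adjusted p = 0.0732). The call in DND41 was also lost without either DND41 DMSO array (0.0525 and 0.0718), that in CUTL1 without CUTL1 DMSO replicate 1 (0.0525), and that in CEM without DMSO replicate 2 (0.25, 0.191) or either treated array (0.0970 and 0.113). Without either treated DND41 array the Jurkat difference was called (0.0365 and 0.0366). The other MNT probe set, 236749_at, changed by 0.09 on average and was not called.

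MGA, the largest of the MAX partners and a subunit of PRC1.6, was not called in any line or on average (0.16, SE 0.10, limma adjusted p = 0.243). These values are from its brightest probe set, 235409_at. Its other tested probe sets were not called either: 212945_s_at changed by 0.004 on average and -0.17 in DND41, and 230848_s_at by 0.06 and 0.23. In DND41 the treated arrays of 235409_at read 8.13 and 7.40, against 7.44 and 7.77 with DMSO, so they overlapped. Without the lower of these treated arrays, DND41 PD-0332991 replicate 2, the average became 0.25 (limma adjusted p = 0.0176) and the DND41 change 0.53 (0.0401), and without the higher one, replicate 1, they were 0.06 and -0.21 (0.523 and 0.453), so the sign in DND41 depended on which of the 2 was kept.

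MXD3 was the antagonist called lower, while MXD1, MXI1 and MNT were called higher. In the mouse it is expressed in proliferating cells around S phase, unlike its relatives. In CUTL1 its arrays read 7.81 and 7.80 with PD-0332991, against 8.68 and 8.19 with DMSO, and in Jurkat 7.38 and 7.36, against 7.88 and 7.88 with DMSO. The treated arrays lay below the DMSO arrays in all 4 lines, as they did for 10.7% of all genes. MXD3 fell by 0.63 in CUTL1 (SE 0.12, 1.54-fold, limma adjusted p = 0.00287), by 0.51 in Jurkat (0.0102) and by 0.38 on average (SE 0.06, 0.000370). Without CUTL1 DMSO replicate 1, the higher of that pair, the change in CUTL1 was -0.38 (limma adjusted p = 0.0105). The differences of -0.22 in CEM and -0.15 in DND41 did not pass (limma adjusted p = 0.227 and 0.399). The Jurkat call was lost without either treated Jurkat array (limma adjusted p = 0.0519 and 0.0585), the CEM difference was called without either CUTL1 DMSO array (0.0408 and 0.0410), and without CUTL1 DMSO replicate 2 the change differed between lines (0.00889, against 0.163).

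MLX was not called on its brightest probe set, 213708_s_at, with a difference of 0.06 on average (SE 0.04, limma adjusted p = 0.262). Of its 6 probe sets 1, 217909_s_at, fell by 0.19 on average and by 0.36 in CEM (limma adjusted p = 0.00654 and 0.0163). Over all probe sets tested 41.1% were called on average and 21.9% in CEM.

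**Figure D3:**
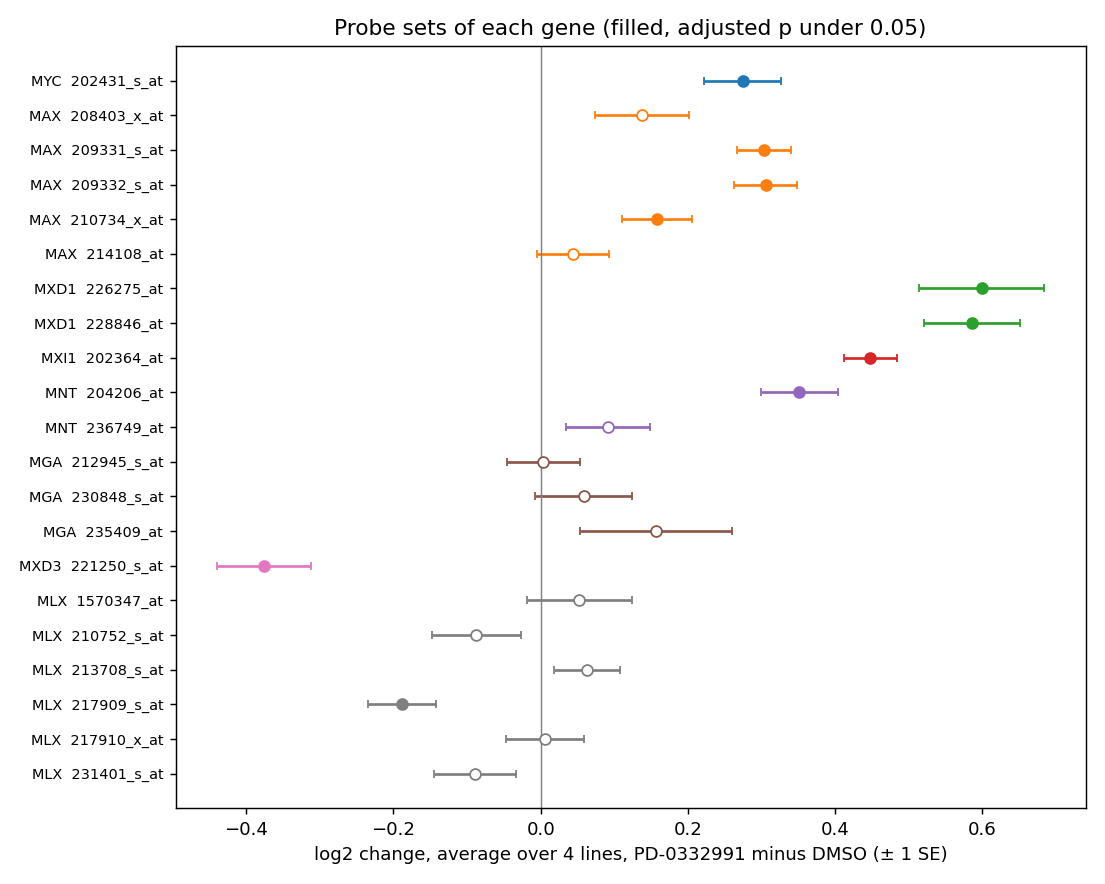
Average log2 change over 4 lines with 1 standard error (horizontal axis) of the 21 probe sets tested, grouped by gene, filled where the adjusted p was under 0.05. The MAX probe sets run from 0.04 to 0.31, both MXD1 probe sets lie near 0.6, and 1 MLX probe set is called lower.

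In each line the counts were read against that line's background. In CEM 4 of the 8 genes (MAX, MXD1, MXI1, MNT) were called, each higher (16.5% of all genes called higher). In CUTL1 4 were higher (MYC, MAX, MXI1, MNT) against 14.6% and 1 lower (MXD3) against 12.7%. In DND41 4 were higher (MYC, MXD1, MXI1, MNT) against 11.1%, and of all genes called there 1495 were higher and 2305 lower. That split became 899 and 2880 after median centring of each array, 2156 and 1760 after quantile normalisation and 1917 and 1838 after cyclic loess. In Jurkat 3 were higher (MAX, MXD1, MXI1) and 1 lower (MXD3), against 15.6% and 11.4% of all genes.

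Set side by side, MYC's change was above those of 4 of its 5 measured antagonists in CUTL1 and of 1 of 5 in CEM and in Jurkat, with each scaling tried. In DND41 the differences between MYC's change and an antagonist's ran from 0.02 (MXI1) to 0.70 (MXD3), so 5 of 5 were above 0, but 3 of 5 were after quantile normalisation and 4 of 5 after cyclic loess. In CUTL1 they ran from -0.23 for MXI1 to 1.21 for MXD3. In CEM and Jurkat the positive one was that for MXD3 (0.35 in CEM and 0.34 in Jurkat). In Jurkat MXI1 and MNT gave -0.39 and -0.40. These are differences of changes, with no test, and levels of different probe sets were not compared.

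**Figure D4:**
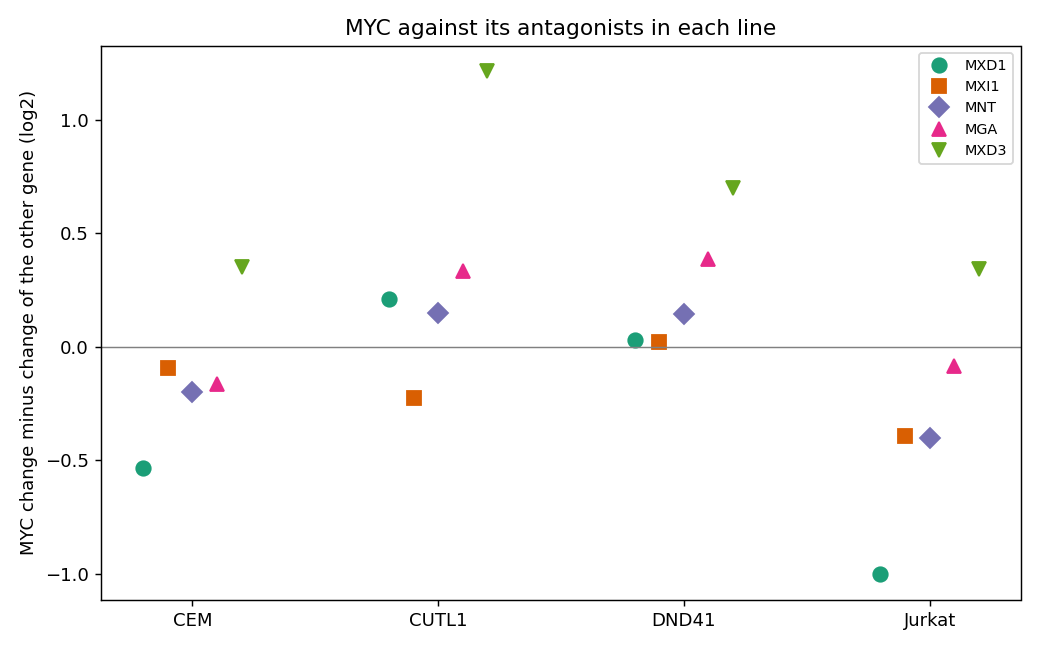
MYC's log2 change minus that of each of 5 antagonists (vertical axis), by line, with a marker per antagonist. Points above 0 mean that MYC changed more upward. In DND41 5 of 5 are above 0 (3 after quantile normalisation and 4 after cyclic loess, which are not drawn), and in CEM and in Jurkat 1 of 5.

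With DMSO alone, 7 of the 8 genes differed between lines (limma F test, 71.2% of all genes did), the exception being MNT (adjusted p = 0.0711). MYC was highest in Jurkat (11.91), then DND41 (11.55), CEM (11.33) and CUTL1 (10.90), a span of 1.01 or 2.01-fold. Of these neighbours DND41 and CEM did not differ beyond their spread (limma adjusted p = 0.0937, but 0.0401 with centred arrays). Of all genes, 43.4% differed in DMSO between CEM and CUTL1, 45.7% between CEM and DND41, 48.1% between CEM and Jurkat, 44.1% between CUTL1 and DND41, 49.5% between CUTL1 and Jurkat and 46.9% between DND41 and Jurkat. MXD1 was highest in CEM (6.78) and lowest in Jurkat (5.63), a span of 1.14 or 2.21-fold, with CEM, CUTL1 and DND41 not separated. MGA was highest in CUTL1 (8.64) and lowest in DND41 (7.60), with CUTL1, CEM and Jurkat not separated. MXD3 was highest in CUTL1 (8.43) with the other 3 lines together, and MXI1 was lowest in CEM (8.47). MAX (11.53) and MLX (10.38) were highest in Jurkat. With the mean of all probe sets MLX did not separate Jurkat from CEM or CUTL1 (limma adjusted p = 0.129 and 0.0681), nor MGA DND41 from Jurkat (0.133), and after quantile normalisation MXI1 did not separate CEM from DND41 (0.0911). Jurkat, highest in MYC with DMSO, was the 1 line whose treated MYC arrays lay below its controls. That level and that change share the same DMSO arrays, the change was not called, and a link between them was not tested.

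Genes linked to the network by function were counted from lists written with earlier results of these data known. Of the 32 tested genes that MYC is known to activate, 21 fell and 2 rose (median -0.18), beside 20.0% of all genes called lower and 26.7% higher. The falls included the phosphatase gene CDC25A (-2.16), E2F2 (-2.19), PCNA of the replication fork (-1.48) and the Ran exchange factor gene RCC1 (-0.59), several of which are also cell cycle genes. The rises were CCND2 (0.47) and APEX1 (0.13), named after their values were seen. Per line, 20 fell in CEM, 10 in CUTL1, 14 in DND41 and 13 in Jurkat. Of all genes, 11.6% were called lower in CEM, 12.7% in CUTL1, 17.1% in DND41 and 11.4% in Jurkat. The 14 in DND41 became 22 with centred arrays, 13 after quantile normalisation and 12 after cyclic loess. Beside these, all genes called lower in DND41 were 2880 of 13496 with centred arrays, 1760 of 13493 after quantile normalisation and 1838 of 13493 after cyclic loess. Of 10 tested genes known to be repressed by MYC, NDRG1 (0.44) and GADD45A (0.44) rose, and CDKN1A (-0.51) and DDIT3 (-0.35) fell.

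**Figure D5:**
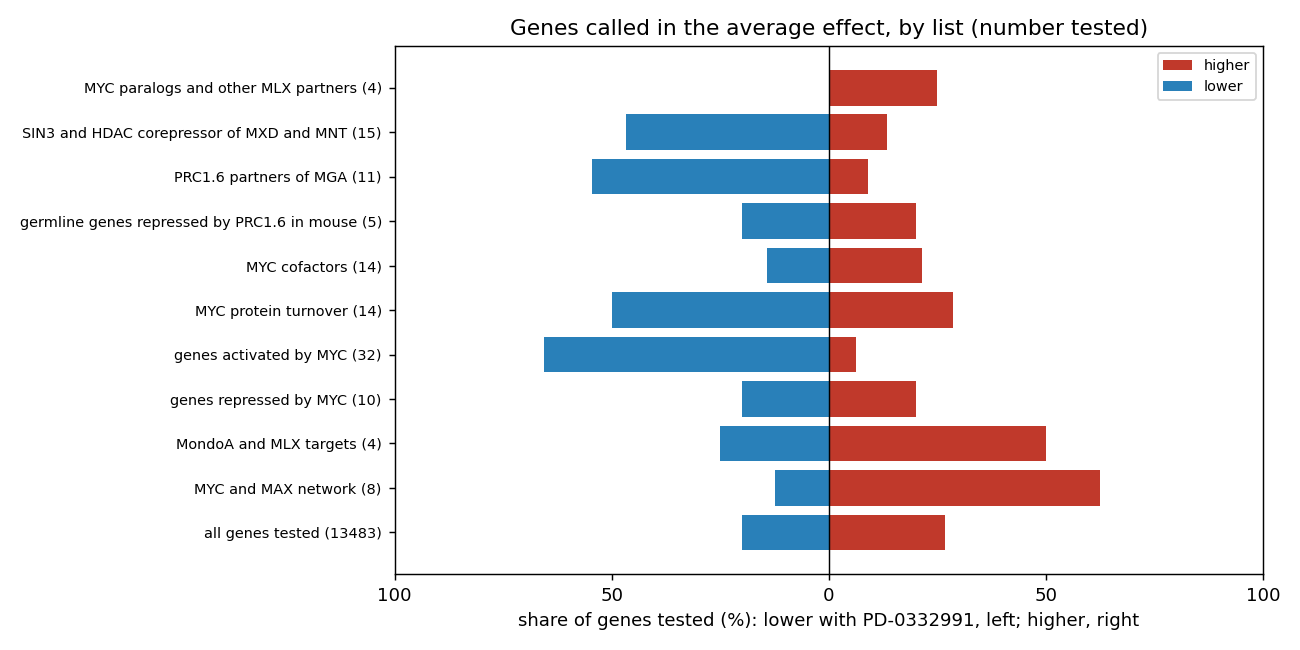
Share of each list's tested genes called higher (right, red) or lower (left, blue) with PD-0332991 in the average effect, with the number tested in brackets. Among genes activated by MYC 21 of 32 were lower, and in the MYC and MAX network 5 of 8 were higher and 1 lower.

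For partners and regulators of the network the same shares of all genes apply to each count, 26.7% called higher and 20.0% lower. MLXIP, which encodes MondoA, rose by 0.47 (limma adjusted p = 3.34e-05), and of 4 MondoA and MLX targets TXNIP (0.69) and ARRDC4 (0.60), arrestins that limit glucose uptake, rose, KLF10 (-0.50) fell and PKLR (-0.05) was not called. MYCN (0.21), MYCL (0.00) and MLXIPL (-0.10) were not called. Of 15 SIN3 and HDAC genes 7 fell, among them ING2 (-0.92), SAP30 (-0.62), RBBP7 (-0.57) and SAP130 (-0.27), and 2 rose. Of 11 PRC1.6 genes 6 fell, among them TFDP1 (-1.14), WDR5 (-0.49), PCGF6 (-0.39) and E2F6 (-0.30), and 1 rose. Of 5 tested germline genes that PRC1.6 represses in mouse, MEI1 (0.28) rose and SYCE2 (-0.94) fell.

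Of 14 tested regulators of MYC protein, 7 fell and 4 rose, beside 20.0% of all genes called lower and 26.7% higher. USP37, which removes ubiquitin from MYC (-1.12), the ubiquitin ligase gene SKP2 (-0.84) and the SUMO protease gene SENP1 (-0.61) fell, and the kinase gene GSK3B (0.57), whose product marks MYC for degradation, rose. Of 14 MYC cofactors 3 rose and 2 fell. CCNT1 (0.26), ZBTB17 (0.21) and CDK9 (0.10) rose, and PAF1 (-0.13) fell. The median of this list was 0.03, and with other scalings its counts of rises and falls ran from 2 and 3 with centred arrays to 4 and 0 after quantile normalisation. These counts were not tested against other genes, whose median was 0.04.

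Across the 16 arrays, the genes with the level most like MYC's were RBPJ (Pearson r = 0.949), UBE2D4 (0.927) and RPL32 (0.926). After each line's mean was taken away they were DANCR (0.923), MRPL45 (0.913) and TENM4 (0.902). For MXI1 the within-line values were highest for P2RY8 (0.977), MED28 (0.973) and NACA (0.971), and for MXD3 for ASH2L (0.933), EME1 (0.933) and CNOT9 (0.930). MXI1 itself correlated with MYC at 0.845 within lines. These values describe the 16 arrays and have no test, and arrays of a group share line and treatment.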

How the data were processed

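RNA was measured in 16 samples on Affymetrix U133 Plus 2.0 arrays. Per the submitters' processing notes, the deposited values are probe set intensity values made with RMA (no version, and the genome build is not given in the sources used here). They are linear, from 4.42 to 26097, although the design had allowed for log2 values, so log2 was taken, with no pseudocount or further scaling. Gene names came from the platform annotation: of 54675 probe sets, 41097 had 1 symbol, 1801 several and 11777 none. A gene was its brightest single-symbol probe set over all arrays, and entered the tests when any line's mean over its 4 arrays was at or above the overall median (29.5). This kept 13483 genes. A model with 8 group means was fitted in R 4.3.3 with limma 3.58.1 (two-sided, Benjamini-Hochberg over all genes tested), and again over 24893 probe sets, and was tested on simulated data with known changes. The members, lists and alternatives were chosen with earlier results of these data known. Named genes were the listed members, the 4 genes with the smallest p in each list and the 3 most similar genes. Alternatives covered probe set choice, scaling, the dim filter, the intensity trend, the replicate block, single lines and left-out arrays. Same-numbered arrays of a line correlated in their deviations at 0.0760 in CEM, 0.195 in CUTL1, -0.108 in DND41 and 0.105 in Jurkat, so numbers were not taken as pairs. Promoter sequences are RefSeq's, build GRCh38.p14, used for 7 of the 8 genes, with MYC left out.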

Additional observations from a re-analysis of the deposited data

Results flagged for a closer look

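Both genes whose change was found to differ between lines are listed here, beside 12.6% of all genes tested that differed so. MYC's change with PD-0332991 differed between the 4 lines (limma F test, adjusted p = 0.0130), from 0.59 in CUTL1 and 0.55 in DND41 to 0.13 in CEM and -0.17 in Jurkat. MXI1's change differed as well (limma F test, adjusted p = 0.00505), from 0.81 in CUTL1 and 0.53 in DND41 to 0.23 in CEM and 0.22 in Jurkat. The treated arrays of MXI1 lay above the DMSO arrays in all 4 lines, as did those of 10.7% of all genes. The 18S signal was lower in the treated arrays of CUTL1 and DND41 than in their DMSO arrays, and its part was not tested.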

How the results depend on the processing

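The change in MYC kept its direction and side of the threshold in the average, in each line and in the difference between lines under the alternatives tried, with 1 exception. With each line as 1 replicate the average of 0.27 had a limma adjusted p of 0.227. With single arrays left out it stayed between 0.24 and 0.30. For the 8 genes, leaving out a whole line was recorded for their averages alone, and each average kept its side of the threshold. MYC's difference between lines and its change in each line were not checked that way. Without probe sets ending in _x_at or _s_at, MYC and MXD3 have no probe set left. Of MAX, MXD1, MXI1, MNT, MGA and MLX, 3 were then called higher on average and 0 lower. Beside them, 4577 of 10575 genes were called on average in either direction. MAX was left with its faintest probe set, 214108_at, and turned to -0.013 in CEM and -0.037 in Jurkat. Neither value passed in the fit over probe sets (limma adjusted p = 0.948 and 0.843). Over all 8 genes, of 265 results that had been called 241 kept the call under other settings, 22 lost it and 2 turned (the MAX results just given), and of 227 not called 3 gained one. With arrays left out 375 of 400 kept it and 25 lost it, and of 368 not called 11 gained one. Of the differences between lines in DMSO, 72 of 78 kept the call and 6 lost it, and 5 of 66 gained one. A replicate block cost the calls of MXI1 in CEM (0.0599) and Jurkat (0.0635) and of MNT in CEM (0.0547). With the mean of all probe sets, MAX in DND41 was called (0.22, limma adjusted p = 0.0153) and in CEM not (0.11, 0.181), MNT in CEM (0.23, 0.0705) and DND41 (0.18, 0.150) lost their calls, and with centred arrays MXD1 in DND41 did (0.44, 0.0793). Over all genes, those whose change differed between lines numbered 1700, against 2604 with an intensity trend, 1079 with the replicate block and 777 without DND41 DMSO replicate 1, and from 631 to 1061 without CEM, CUTL1 or DND41. With the replicate numbers crossed in DND41, added after seeing the data, it was 1385, and the calls in DND41 3681. The average had 6288 calls, against 2546 with lines as replicates. DND41 had 3800, against 2014 with its own 4 arrays and 2139 without DND41 DMSO replicate 2. CEM had 3786, against 2353 without CEM PD-0332991 replicate 1. CUTL1 had 3673, against 2448 without CUTL1 PD-0332991 replicate 1. Jurkat had 3645, against 2147 without Jurkat PD-0332991 replicate 2. With 2 arrays a group, smaller changes can be missed.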
